A study of Danio rerio with 6 samples.

Results

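The genes described here encode the exchangers, cotransporters and pumps that move inorganic ions across the membranes of intestinal cells. They were chosen by symbol: every Ensembl gene ID whose name, ignoring case, began with slc4a, slc8a, slc9a, slc12a, slc13a, slc20a, slc24a, slc26a, slc34a, atp1a, atp1b or fxyd. This gave 102 of the 35117 gene IDs in each library. The set holds 15 bicarbonate transporter genes (slc4a), 10 sodium-proton exchanger genes (slc9a), 25 chloride and other anion transporter genes (slc12a and slc26a) and 7 phosphate cotransporter genes (slc20a and slc34a). It also holds 24 sodium pump genes (atp1a, atp1b and fxyd), 15 sodium-calcium exchanger genes (slc8a and slc24a) and 6 sulfate and carboxylate cotransporter genes (slc13a). One of the slc4a symbols, slc4a1ap, names an adaptor protein and no transporter.

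RNA sequencing compared 2 populations of cells sorted by fluorescence from wild-type EK zebrafish larvae, 6 days after fertilization. All larvae had been given a fluorescent sugar polymer, Alexa Fluor dextran, by gavage 24 hours earlier, in 1 to 2 nl at 2.5 mg/ml. Cells positive for the cldn15la-GFP reporter formed the intestinal epithelial cell group (IEC, n = 3 libraries), and cells positive for both the reporter and the dextran formed the lysosome rich enterocyte group (LRE, n = 3 libraries), enterocytes that take up protein from the gut lumen. Whether cells with dextran could enter the IEC gate is not stated, nor whether each library had its own larvae, so the p-values cover a spread between libraries that may be technical.

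The sodium pump exchanges intracellular sodium for extracellular potassium and so maintains the inward sodium gradient that many cotransporters draw on. Its alpha subunits carry out transport, its beta subunits are needed for folding and delivery to the membrane, and FXYD proteins are small subunits that tune its activity. In intestinal epithelium, apical sodium-proton and chloride-bicarbonate exchangers absorb salt, basolateral sodium-bicarbonate cotransporters load cells with base, and sodium cotransporters of the SLC34 and SLC13 families bring in phosphate, sulfate and the acids of the citric acid cycle. These roles are known mainly from mammals.

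Total counts per library lay between 39590129 and 53250871. Levels are given as CPM (read counts scaled to a common library size) with TMM factors, which corrects for differences in library composition. They can be compared between libraries for 1 gene, but not between genes of different length. LRE library 1 stood apart, with 19396 genes detected against 22974 to 25610 in the other libraries, and 78 of the 102 members detected against 95 to 102. The labels held for the LRE group, since markers of lysosome rich enterocytes summed to 23670 to 53170 CPM there and to 819 to 1718 CPM in IEC, and 10 of 11 such marker IDs passed the test as higher. Summed enterocyte markers lay between 6899 and 9593 CPM in IEC and between 4626 and 5531 CPM in LRE. Enteroendocrine markers summed to 24700, 4996 and 5663 CPM in IEC libraries 1 to 3 against 366 to 2939 CPM in LRE. IEC library 1 also differed from the other IEC libraries in that its top 10 genes held 29.25% of its counts, against 14.33% and 13.12%. Keratinocyte markers summed to 5179 to 8910 CPM in IEC and 11640 to 17960 CPM in LRE. In sorted populations measured in bulk, fewer cells of a type and less RNA per cell cannot be told apart.

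Of the 102 members, 96 had enough reads to be tested, and the 6 that did not had at most 44 reads in any library; SLC12A1, slc26a10, slc26a3.1, slc26a6l2 and SLC34A1 at ENSDARG00000054658 were among them. Among the 96, 3 were higher in LRE and 2 were lower at an adjusted p under 0.05 (edgeR quasi-likelihood test, Benjamini-Hochberg over all 20979 tested genes), and 91 did not pass. Over all tested genes, 2.30% were called higher and 0.910% were called lower. The 3 genes that rose were a sodium-bicarbonate cotransporter (SLC4A4), the prestin gene (SLC26A5) and a sodium-dicarboxylate cotransporter (SLC13A3). The 2 that fell were a citrate cotransporter (slc13a5b) and a sodium-calcium exchanger (SLC8A3). With the replicate number as a block, 8 members were called higher and 4 lower, beside 789 higher and 367 lower of all 20979 tested genes.

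Groups that did not overlap were counted over all tested members, those that passed included. In 22 of the 96 members (22.9%) all LRE values lay above all IEC values, against 13.0% of all tested genes. In 9 members (9.38%) all LRE values lay below all IEC values, against 13.8% of all tested genes. The median log2 fold change was 0.63 over the 96 members and -0.06 over all tested genes. Scaling by totals alone shifted the median of all genes by -0.397. It left 11 members with all LRE values above IEC and 9 with all below, against 1194 and 4433 of all tested genes.

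**Figure D1:**
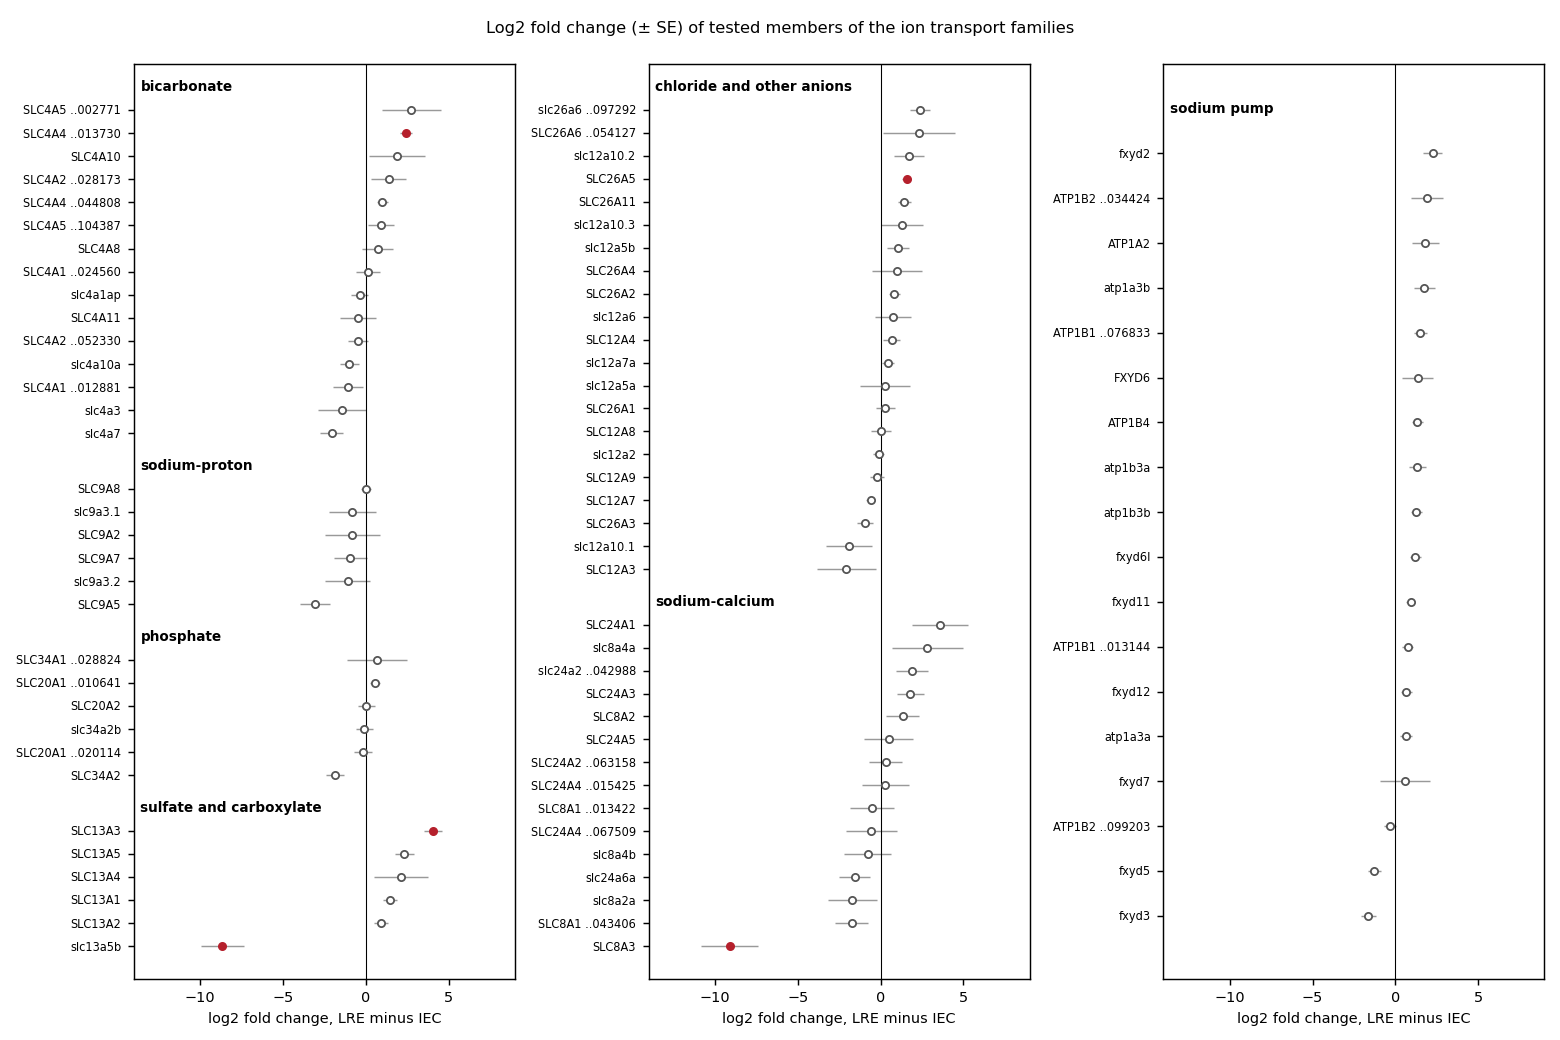
Log2 fold change, LRE minus IEC, with its SE (horizontal bars) for 87 of the 96 tested members, by class; filled red points passed the edgeR test and open points did not, and numbers after a shared symbol are the last digits of the Ensembl ID. The points of 15 of the 18 sodium pump genes drawn lie to the right of 0, and the lowest points of all are those of slc13a5b and SLC8A3.

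Among the bicarbonate transporters, SLC4A4 rose about 5-fold, and slc4a7 had its values in the other direction. SLC4A4 encodes the electrogenic sodium-bicarbonate cotransporter, which carries sodium and base across the basolateral membrane of many epithelia. Its ID ENSDARG00000013730 had 22.6, 38.2 and 48.4 CPM in IEC libraries 1 to 3 and 151, 249.8 and 191 CPM in the LRE libraries. Every LRE library thus lay well above the highest IEC library. The means were 36.4 ± 13.0 and 197 ± 49.7 CPM (SD, n = 3 each), a ratio of 5.42 and a log2 fold change of 2.44 ± 0.37 (SE; edgeR adjusted p = 0.0127). This call was lost when the libraries were scaled by totals alone (adjusted p = 0.125, log2 fold change 1.98) and when IEC library 2 was left out.

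A second ID under the same symbol, ENSDARG00000044808, had 18.8, 27.9 and 27.2 CPM in IEC and 35.2, 40.2 and 72.5 CPM in LRE. The LRE values again lay above the IEC values, but the log2 fold change of 1.00 ± 0.35 did not pass (edgeR adjusted p = 0.179). The symbol table gives no paralog letter for either ID, and reads of near-identical copies may have been split or dropped in counting.

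slc4a7, an electroneutral sodium-bicarbonate cotransporter, had 26.8, 24.6 and 15.8 CPM in IEC and 1.81, 11.6 and 2.67 CPM in LRE. All LRE values lay below the IEC values, with LRE library 2 closest to them. Its log2 fold change was -2.06 ± 0.68 (edgeR adjusted p = 0.162), and without LRE library 2 it was -3.32 with an adjusted p of 0.0241. SLC4A1, the chloride-bicarbonate exchanger of red blood cells, had at ENSDARG00000012881 3.64, 40.9 and 40.3 CPM in IEC and 5.19, 28.6 and 5.86 CPM in LRE. The groups overlapped (log2 fold change -1.09 ± 0.91, edgeR adjusted p = 0.615), and the summed erythrocyte markers were 75.4 to 183 CPM in IEC and 113 to 262 CPM in LRE. The other slc4a genes did not pass, and the median of the class was 0.11 on the log2 scale. It had no stable sign, at -0.32 when scaled by totals alone, -0.55 without LRE library 3 and 0.79 without IEC library 2.

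With edgeR, 0 of the 9 tested sodium-proton exchangers passed, and 7 had a negative log2 fold change. At an unadjusted p under 0.05, 1 was higher and 1 lower, beside 3562 of all 20979 tested genes in either direction. DESeq2 called 1, SLC9A5, lower, beside 952 lower of the 22006 genes to which it gave an adjusted p. SLC9A5, an exchanger known in mammals from neurons, had 4.30, 12.3 and 12.6 CPM in IEC and 0.137, 1.94 and 1.37 CPM in LRE. All LRE values lay below the IEC values, and the means were 9.76 ± 4.73 and 1.15 ± 0.921 CPM (SD, n = 3 each). The log2 fold change of -3.07 ± 0.90 did not pass (edgeR adjusted p = 0.118), while it did with the replicate block (adjusted p = 0.0373). Of 13 enteroendocrine marker IDs, 3 passed as lower in LRE, where the hormone gene gip was at 0 in library 1 and at most 0.0651 CPM in the others, and neuron markers summed to 219 to 292 CPM in IEC and 293 to 408 CPM in LRE. The part of either cell type in the level of SLC9A5 was not tested.

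SLC9A8, an exchanger of the Golgi and apical membrane, had 17.1, 13.3 and 16.9 CPM in IEC and 19.4, 14.9 and 13.5 CPM in LRE, groups that overlapped almost fully (log2 fold change 0.01 ± 0.31). SLC9A7, an exchanger of the trans-Golgi network, ranged from 4.83 to 16.5 CPM in IEC and from 0.308 to 10.6 CPM in LRE. Outside the rule for named genes, the 2 genes for NHE3, the main apical sodium-proton exchanger of mammalian intestine, were low in both groups. slc9a3.1 lay between 0.905 and 2.00 CPM in IEC and between 0.0434 and 2.59 CPM in LRE. slc9a3.2 lay between 1.13 and 5.74 CPM in IEC and between 0 and 2.69 CPM in LRE. At these levels neither NHE3 gene showed a difference larger than the spread between libraries.

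Of the 21 tested chloride and other anion transporters, 1 passed, as higher, beside 2.30% of all tested genes called higher. SLC26A5 encodes prestin, the motor protein of outer hair cells in mammals; its zebrafish counterpart carries anions. It had 61.4, 74.1 and 53.6 CPM in IEC and 199.6, 156 and 208 CPM in LRE. All LRE libraries lay above the highest IEC library, and the spread within each group was small. The means were 63.0 ± 10.3 and 188 ± 28.0 CPM (SD, n = 3 each), with a log2 fold change of 1.58 ± 0.27 (edgeR adjusted p = 0.0211). The call was lost in 6 of the 12 alternatives, among them scaling by totals alone (adjusted p = 0.185), leaving out any 1 IEC library and leaving out LRE library 3.

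The slc26a family had 8 tested genes with a median log2 fold change of 1.21. slc26a6, an apical exchanger of chloride for bicarbonate and oxalate, had at ENSDARG00000097292 2.45, 1.01 and 1.19 CPM in IEC and 5.06, 8.09 and 10.8 CPM in LRE. All LRE values were higher, and the log2 fold change was 2.37 ± 0.60 (edgeR adjusted p = 0.0774). The other ID of that symbol, ENSDARG00000054127, had overlapping groups (log2 fold change 2.33 ± 2.17, edgeR adjusted p = 0.6565). SLC26A11, outside the rule for named genes and known as a sulfate and chloride transporter, had 5.52, 11.4 and 9.05 CPM in IEC and 19.5, 18.7 and 32.4 CPM in LRE. The groups of SLC26A11 lay apart (log2 fold change 1.44 ± 0.40, edgeR adjusted p = 0.0980). SLC26A3, the apical chloride-bicarbonate exchanger of mammalian colon, had 36.1, 30.6 and 81.3 CPM in IEC and 27.4, 12.5 and 36.7 CPM in LRE, groups that overlapped (log2 fold change -0.95 ± 0.49, edgeR adjusted p = 0.380).

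None of the 13 tested slc12a cation-chloride cotransporters passed in either direction with edgeR, and 0 had an unadjusted p under 0.05. DESeq2 called 0 of them as well. Over all 20979 genes tested with edgeR, 2.30% were called higher and 0.910% lower, and 3562 had an unadjusted p under 0.05. At these shares, 0 calls in a family of this size say little about the family. slc12a2, the basolateral sodium-potassium-chloride cotransporter that loads secretory cells with chloride, had 45.6, 90.4 and 82.8 CPM in IEC and 67.2, 85.2 and 49.98 CPM in LRE. The LRE values lay within the range of the IEC values (log2 fold change -0.11 ± 0.34, edgeR adjusted p = 0.906). SLC12A7, a potassium-chloride cotransporter named outside the rule, had 29.3, 38.8 and 34.3 CPM in IEC and 23.9, 17.6 and 26.0 CPM in LRE, all lower (log2 fold change -0.61 ± 0.28, edgeR adjusted p = 0.319).

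**Figure D2:**
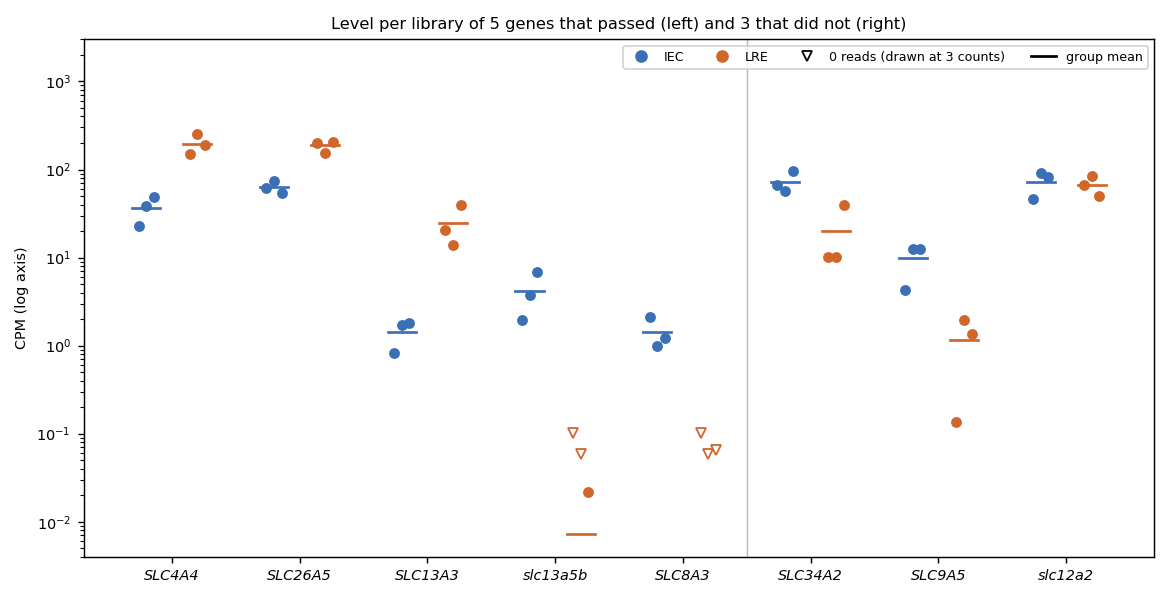
CPM on a log axis in each of the 3 IEC (blue) and 3 LRE (orange) libraries for the 5 members that passed and 3 that did not, with group means as lines; SLC4A4 is ENSDARG00000013730. Open triangles mark libraries with 0 reads, drawn at the CPM of 3 counts, so the single LRE read of slc13a5b lies below them.

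With edgeR, 0 of the 6 tested phosphate cotransporters passed. At an unadjusted p under 0.05, 1 was lower, beside 3562 of all 20979 tested genes in either direction. DESeq2 called 1, SLC34A2, lower, beside 952 lower of the 22006 genes to which it gave an adjusted p. SLC34A2, the apical sodium-phosphate cotransporter of the small intestine, had 66.6, 57.4 and 95.1 CPM in IEC and 10.05, 10.2 and 39.5 CPM in LRE. Each LRE library was below each IEC library, and LRE library 3 stood above the other two LRE libraries. The means were 73.0 ± 19.6 and 19.9 ± 16.9 CPM (SD, n = 3 each), with a log2 fold change of -1.87 ± 0.55 (edgeR adjusted p = 0.123). With the replicate block the log2 fold change was -2.16 and passed (adjusted p = 0.0251), and it also passed without LRE library 3 (-2.89, adjusted p = 0.0208).

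The SLC20 cotransporters, which supply phosphate to cells of most tissues, had overlapping groups. SLC20A1 at ENSDARG00000010641 had 139, 228 and 167 CPM in IEC and 279, 216 and 296 CPM in LRE (log2 fold change 0.57 ± 0.30, edgeR adjusted p = 0.394). SLC20A1 at ENSDARG00000020114 had 53.7, 108 and 88.4 CPM in IEC and 52.7, 141 and 27.3 CPM in LRE (log2 fold change -0.18 ± 0.56). In LRE the second ID spread widely, with library 2 high and library 3 low. Summed over the family, slc34a counts were 79.7 ± 21.9 CPM in IEC and 27.0 ± 17.4 CPM in LRE, while slc20a counts were 283 ± 72.7 and 360.1 ± 27.1 CPM (SD, n = 3 each). Most of the slc34a sum came from SLC34A2, with means of 73.0 CPM in IEC and 19.9 CPM in LRE. Named outside the rule, slc34a2b had overlapping groups, with means of 5.84 and 5.54 CPM (log2 fold change -0.08 ± 0.50, edgeR adjusted p = 0.957).

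The sulfate and carboxylate cotransporters held both a gene that rose and a gene that fell, with the 2 citrate cotransporter genes in opposite directions. SLC13A3 encodes the sodium-dicarboxylate cotransporter known from the basolateral membrane of mammalian kidney tubules. It had 0.816, 1.71 and 1.79 CPM in IEC and 20.5, 13.8 and 39.0 CPM in LRE. The lowest LRE library lay far above the highest IEC library, and LRE library 3 was the highest. The means were 1.44 ± 0.540 and 24.4 ± 13.1 CPM (SD, n = 3 each), a ratio of 17.0, with a log2 fold change of 4.07 ± 0.55 (edgeR adjusted p = 0.00835). It was called in all 12 alternatives, with adjusted p up to 0.0498.

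slc13a5b, a sodium-citrate cotransporter, had 1.98, 3.74 and 6.90 CPM in IEC and 0, 0 and 0.0217 CPM in LRE. These levels stand for 740 reads in the 3 IEC libraries and 1 read in the 3 LRE libraries. The ratio of IEC to LRE was 575, with an exact counting interval from 103 to 22800 that covers counting error only. The fitted log2 fold change was -8.66 ± 1.29 (edgeR adjusted p = 0.0125), and the call was lost without IEC library 2 or IEC library 3 (adjusted p up to 0.0804).

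SLC13A5, the other citrate cotransporter ID (ENSDARG00000077691), had 3.29, 3.41 and 6.97 CPM in IEC and 14.6, 13.7 and 40.7 CPM in LRE. All LRE values were higher, and the log2 fold change of 2.33 ± 0.55 missed the threshold (edgeR adjusted p = 0.0639) but passed with the replicate block (adjusted p = 0.0163). SLC13A2, the apical dicarboxylate cotransporter of kidney and intestine, had 217, 191 and 348 CPM in IEC and 258, 649 and 532 CPM in LRE, with overlapping groups (log2 fold change 0.93 ± 0.42, edgeR adjusted p = 0.309). SLC13A1, the sodium-sulfate cotransporter, is named outside the rule and had 6.09, 6.38 and 3.29 CPM in IEC and 17.9, 12.5 and 12.9 CPM in LRE. Its groups lay apart without passing (log2 fold change 1.46 ± 0.41, edgeR adjusted p = 0.108). Counts of the 6 slc13a genes together were 268 ± 87.0 CPM in IEC and 542 ± 202 CPM in LRE (SD, n = 3 each). Most of that sum came from SLC13A2, with means of 252 CPM in IEC and 480 CPM in LRE.

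SLC8A3 was the only sodium-calcium exchanger of 15 that passed, as lower, beside 0.910% of all tested genes called lower. It encodes a plasma membrane exchanger that extrudes calcium, known in mammals from brain and skeletal muscle. It had 2.13, 0.977 and 1.21 CPM in IEC and 0 in each LRE library, from 209 reads in IEC and 0 in LRE. Against a floor of 3 counts in each LRE library it was at least 19-fold lower in LRE. The fitted log2 fold change, which has no fixed size against a group at 0, had an edgeR adjusted p of 0.0458. The call was lost in 8 of the 12 alternatives, including the replicate block (adjusted p = 0.107), scaling by totals alone (adjusted p = 0.0587) and leaving out any 1 IEC library.

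SLC8A1, the exchanger of heart muscle in mammals, had at ENSDARG00000043406 2.73, 7.03 and 7.23 CPM in IEC and 0.581, 4.10 and 0.347 CPM in LRE, groups that overlapped (log2 fold change -1.75 ± 0.97, edgeR adjusted p = 0.419). The potassium-dependent exchangers slc24a2 and SLC24A3 had their higher means in LRE. slc24a2 at ENSDARG00000042988 had 0.659, 1.88 and 4.29 CPM in IEC and 1.196, 7.76 and 16.9 CPM in LRE, groups that overlapped (log2 fold change 1.91 ± 0.97, edgeR adjusted p = 0.372). SLC24A3 had 0.690, 1.44 and 1.57 CPM in IEC and 1.57, 3.03 and 8.25 CPM in LRE (log2 fold change 1.79 ± 0.80, edgeR adjusted p = 0.308). Its LRE library 1 was level with IEC library 3. In LRE both had their highest value in library 3 and their lowest in library 1, and neither passed the test. Summed muscle markers were 226 to 722 CPM in IEC and 551 to 1496 CPM in LRE, and their part in these genes was not tested.

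The sodium pump genes lay mostly on the LRE side, though none of the 24 passed with edgeR. Of the 24, 21 had a positive log2 fold change, also when scaled by totals alone. In 11 all LRE values lay above all IEC values and in 2 all lay below, beside 13.0% and 13.8% of all tested genes. With totals alone these were 4 and 2 pump genes, beside 1194 and 4433 of all tested genes. The median log2 fold change was 1.30, or 0.83 with totals alone. At an unadjusted p under 0.05 there were 13 higher and 2 lower, and 2 and 2 with totals alone. Of all 20979 tested genes, 3562 were under 0.05 in either direction, and 3225 with totals alone. DESeq2 called 9 pump genes higher and 2 lower, as part of its 16 members higher and 7 lower. Over the 22006 genes to which it gave an adjusted p, DESeq2 called 1316 higher and 952 lower.

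Genes of both the alpha and the beta subunits had mostly higher values in LRE. All 9 alpha subunit genes had a positive log2 fold change, with a median of 1.55, and 6 of 7 beta subunit genes did, with a median of 1.34.

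Among the beta subunits, ATP1B1 at ENSDARG00000013144 had 871, 835 and 775 CPM in IEC and 1650, 1255 and 1232 CPM in LRE. The groups lay apart, at a log2 fold change of 0.74 ± 0.32 (edgeR adjusted p = 0.283). ATP1B4 had 7.18, 8.39 and 6.93 CPM in IEC and 15.7, 21.0 and 20.2 CPM in LRE. Its groups were narrow and apart, and its log2 fold change of 1.34 ± 0.32 came closest to the threshold of all pump genes (edgeR adjusted p = 0.0667).

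Summed over alpha genes, counts were 803 ± 304 CPM in IEC and 1388 ± 202 CPM in LRE, and over beta genes 988 ± 33.8 and 1697 ± 207 CPM (SD, n = 3 each). IEC library 1 had the lowest alpha sum, 460 CPM against 909 and 1039 CPM in the other IEC libraries. With the TMM factors, the beta sums of the groups lay apart, from 961 to 1026 CPM in IEC and from 1567 to 1936 CPM in LRE. Those factors were 0.81, 1.32 and 1.40 in IEC libraries 1 to 3 and 0.69, 0.95 and 1.02 in the LRE libraries. Whether the sums lie apart with totals alone is not given here. Most of the beta sum came from ATP1B1 at ENSDARG00000013144, with means of 827 CPM in IEC and 1379 CPM in LRE.

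**Figure D3:**
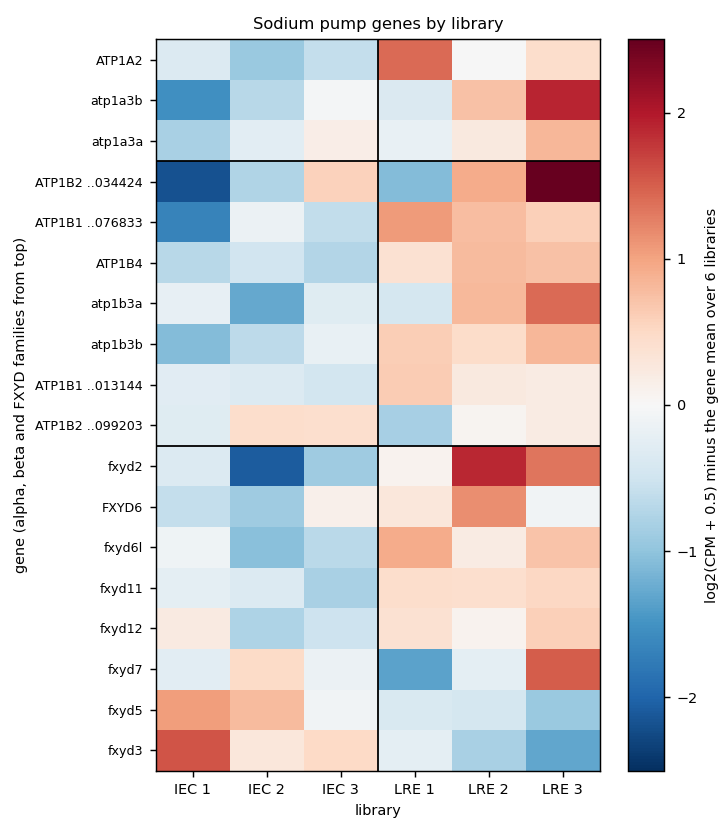
Levels of 18 of the 24 sodium pump genes in each library, as log2(CPM + 0.5) minus the mean of the gene over the 6 libraries, with families separated by lines. Most alpha and beta genes drawn are above their mean (red) in the LRE libraries and below it (blue) in the IEC libraries, while fxyd3 and fxyd5 have the opposite order.

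Of the 8 FXYD genes, 6 had a positive log2 fold change and 2 a negative one, with a median of 0.79. All LRE values lay above all IEC values in 3 and below them in 2, beside 13.0% and 13.8% of all tested genes. fxyd2, the regulator of the kidney sodium pump in mammals, had 24.3, 6.94 and 16.5 CPM in IEC and 33.0, 116 and 79.4 CPM in LRE. All LRE values were higher, with a log2 fold change of 2.26 ± 0.56 (edgeR adjusted p = 0.0751, and 0.0404 without LRE library 1). Picked out after its values were seen, fxyd3, a regulator of the pump in mammalian epithelia, had 347, 142 and 165 CPM in IEC and 98.3, 66.9 and 47.5 CPM in LRE. All LRE values were lower, and the log2 fold change of -1.62 ± 0.43 did not pass (edgeR adjusted p = 0.0898) but did with the replicate block (adjusted p = 0.0237) and when scaled by totals alone (adjusted p = 0.0269). fxyd5, picked out in the same way, had 26.5, 22.1 and 11.9 CPM in IEC and 9.60, 9.12 and 6.38 CPM in LRE (log2 fold change -1.27 ± 0.40, edgeR adjusted p = 0.142). FXYD5 is known in mammals as a modulator of both the pump and cell adhesion.

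With the replicate block, 4 pump genes were called higher and 1 lower, beside 789 higher and 367 lower of all 20979 tested genes. Those higher in LRE included atp1a3b, with a log2 fold change of 1.61 (edgeR adjusted p = 0.0375), ATP1B2 at ENSDARG00000034424, with 1.72 (adjusted p = 0.0311), and fxyd6l, with 1.24 (adjusted p = 0.0270), and fxyd3 was the gene lower. The other ATP1B2 ID, ENSDARG00000099203, had more reads and overlapping groups, with means of 66.0 CPM in IEC and 52.2 CPM in LRE. Its log2 fold change without the block was -0.34 ± 0.35 (edgeR adjusted p = 0.694). Goblet cell markers summed to 1425 to 2707 CPM in IEC and 435 to 1118 CPM in LRE. Ionocyte markers, from cells rich in sodium pump, summed to 163 to 372 CPM in IEC and 407 to 587 CPM in LRE, and 0 of 12 of their IDs passed. Most of that sum came from 2 ATP6V1A IDs for the proton pump. The ionocyte factor foxi3a was at 0 in LRE library 1, at 7.04 and 8.23 CPM in the other LRE libraries and between 3.55 and 9.95 CPM in the IEC libraries. Its paralog foxi3b, also a defining ionocyte factor, had 0.596, 3.45 and 3.54 CPM in IEC and 4.92, 7.87 and 13.95 CPM in LRE. All LRE values of foxi3b lay above the IEC values (log2 fold change 1.81 ± 0.74, edgeR adjusted p = 0.252). The calcium channel TRPV6 had 0.282, 33.2 and 2.98 CPM in IEC and 22.1, 98.8 and 17.2 CPM in LRE, where the groups overlapped (edgeR adjusted p = 0.524). On the same list, ca15a had its higher mean in IEC, with 11.2, 5.39 and 2.78 CPM there and 0, 4.04 and 7.36 CPM in LRE. Its groups overlapped as well (log2 fold change -0.76 ± 1.30, edgeR adjusted p = 0.825). The remaining ionocyte IDs are not given singly. Keratinocyte markers were higher in LRE, with 2 of 6 passing, and fibroblast and smooth muscle markers summed to 1005 to 1675 CPM in IEC and 2858 to 3907 CPM in LRE. Their part in the levels of the pump genes was not tested.

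**Figure D4:**
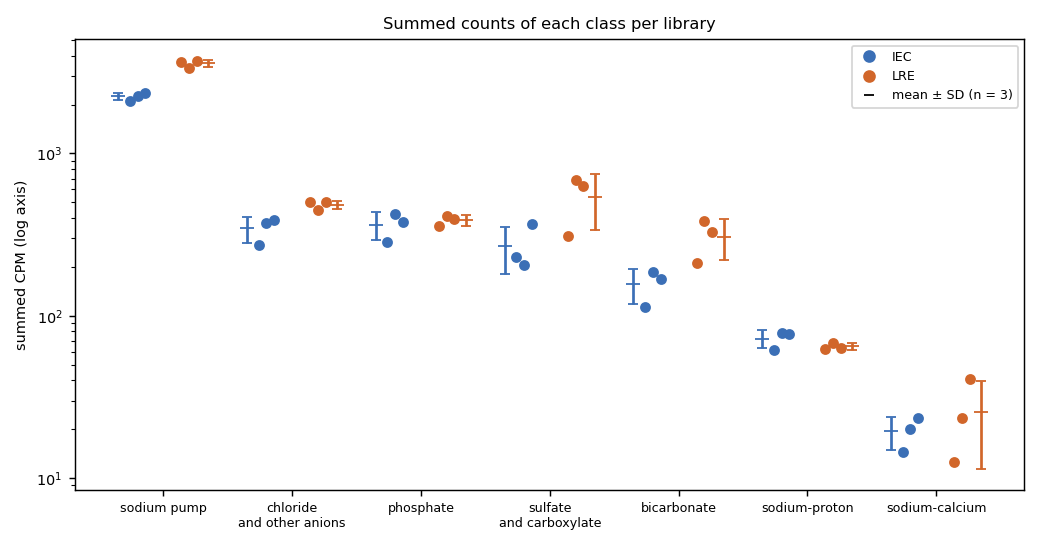
Summed CPM of all members of each class on a log axis, in each IEC (blue) and LRE (orange) library, with mean ± SD (n = 3). All sums are scaled with TMM factors and are not given with totals alone. The sodium pump sums were 2249 ± 126 CPM in IEC and 3591 ± 182 CPM in LRE. The groups overlap for the phosphate, sulfate and carboxylate, sodium-proton and sodium-calcium classes.

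Genes that work with these transporters were taken from a list of 92 IDs in 7 groups, of which 76 were tested. With edgeR, 2 passed as higher (2.63%) and 1 as lower (1.32%). These shares were near the 2.30% and 0.910% of all tested genes. sgk1, a kinase that raises the surface amount of sodium transporters, had 194, 172 and 181 CPM in IEC and 539, 443 and 817 CPM in LRE. Every LRE library lay above the highest IEC library (log2 fold change 1.72 ± 0.33, edgeR adjusted p = 0.0307). KCNK5, a potassium channel linked in mammalian kidney to bicarbonate transport, had at ENSDARG00000012390 15.7, 17.6 and 17.7 CPM in IEC and 47.4, 40.2 and 77.7 CPM in LRE, again apart (log2 fold change 1.69 ± 0.32, edgeR adjusted p = 0.0276). The other KCNK5 ID, ENSDARG00000023587, had overlapping groups (log2 fold change 0.30 ± 0.32, edgeR adjusted p = 0.712). The sgk1 call was lost in 8 of the 12 alternatives, with totals alone, without any 1 library and without both libraries numbered 1, at adjusted p up to 0.168. The KCNK5 call was lost in 6 of the 12, with totals alone, without any 1 IEC library, without LRE library 3 and without both libraries numbered 1, at adjusted p up to 0.229.

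ca2, a cytosolic carbonic anhydrase that makes bicarbonate and protons from carbon dioxide, was the gene that fell. It had 1172, 3475 and 1543 CPM in IEC and 460.3, 377 and 237 CPM in LRE, so that all LRE values were lower (log2 fold change -2.53 ± 0.51, edgeR adjusted p = 0.0382). Its call was lost in 6 alternatives (adjusted p up to 0.160). CA6, the secreted carbonic anhydrase, had 11.5, 16.9 and 17.6 CPM in IEC and 27.0, 46.5 and 48.9 CPM in LRE (log2 fold change 1.41 ± 0.33, edgeR adjusted p = 0.0626, and 0.0252 with the replicate block). CHP1, an obligate partner of plasma membrane sodium-proton exchangers, had 38.9, 37.9 and 38.7 CPM in IEC and 97.4, 90.1 and 64.1 CPM in LRE (log2 fold change 1.12 ± 0.26, edgeR adjusted p = 0.0569, and 0.0443 with the replicate block). The groups of both genes lay apart.

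Of the 14 tested chloride channels and exchangers, 0 passed with edgeR. At an unadjusted p under 0.05, 4 were higher and 2 lower, beside 3562 of all 20979 tested genes in either direction. With the replicate block, edgeR called 2 of the 14 higher and 0 lower, beside 789 higher and 367 lower of all 20979 tested genes. DESeq2, fitted without the filter on low counts used for edgeR, gave a fold change for 20 and called 3 higher and 2 lower. Over the 22006 genes to which it gave an adjusted p, it called 1316 higher and 952 lower. Picked out after their values were seen, the 2 CLCN5 IDs, for the endosomal chloride-proton exchanger, were higher in every LRE library than in any IEC library. ENSDARG00000019693 had 14.0, 4.41 and 9.12 CPM in IEC and 39.1, 21.0 and 43.9 CPM in LRE (log2 fold change 1.92 ± 0.48, edgeR adjusted p = 0.0749). CLCN7, the lysosomal exchanger, had 12.5, 42.1 and 18.6 CPM in IEC and 49.9, 55.9 and 95.1 CPM in LRE, and its subunit OSTM1 had 5.93, 11.5 and 7.49 CPM in IEC and 18.0, 25.0 and 25.2 CPM in LRE. All LRE values of both lay above IEC without passing (edgeR adjusted p = 0.158 and 0.0771). CLCN3 was also higher in all LRE libraries (log2 fold change 0.52 ± 0.25, edgeR adjusted p = 0.340). CLCN4 went the other way, with 8.53, 6.45 and 11.8 CPM in IEC and 4.44, 5.78 and 2.13 CPM in LRE (log2 fold change -1.12 ± 0.52, edgeR adjusted p = 0.326). The groups of CLCN6 overlapped (log2 fold change -0.11 ± 0.96, edgeR adjusted p = 0.915). The apical chloride channel CFTR had 49.5, 164 and 135 CPM in IEC and 50.6, 39.4 and 29.9 CPM in LRE, with an overlap at IEC library 1 (log2 fold change -1.54 ± 0.44, edgeR adjusted p = 0.114). Markers of best4 cells, a list that includes CFTR, summed to 407 to 671 CPM in IEC and 198 to 284 CPM in LRE. Of the 10 tested kinases and partners that control SLC12 cotransporters, 0 passed with edgeR, and 1, wnk4b, had an unadjusted p under 0.05. Beside these, 2.30% of all tested genes were called higher and 0.910% lower, and 3562 of 20979 had an unadjusted p under 0.05. DESeq2, without that filter, gave a fold change for 11 and called 1 lower, which need not be wnk4b.

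**Figure D5:**
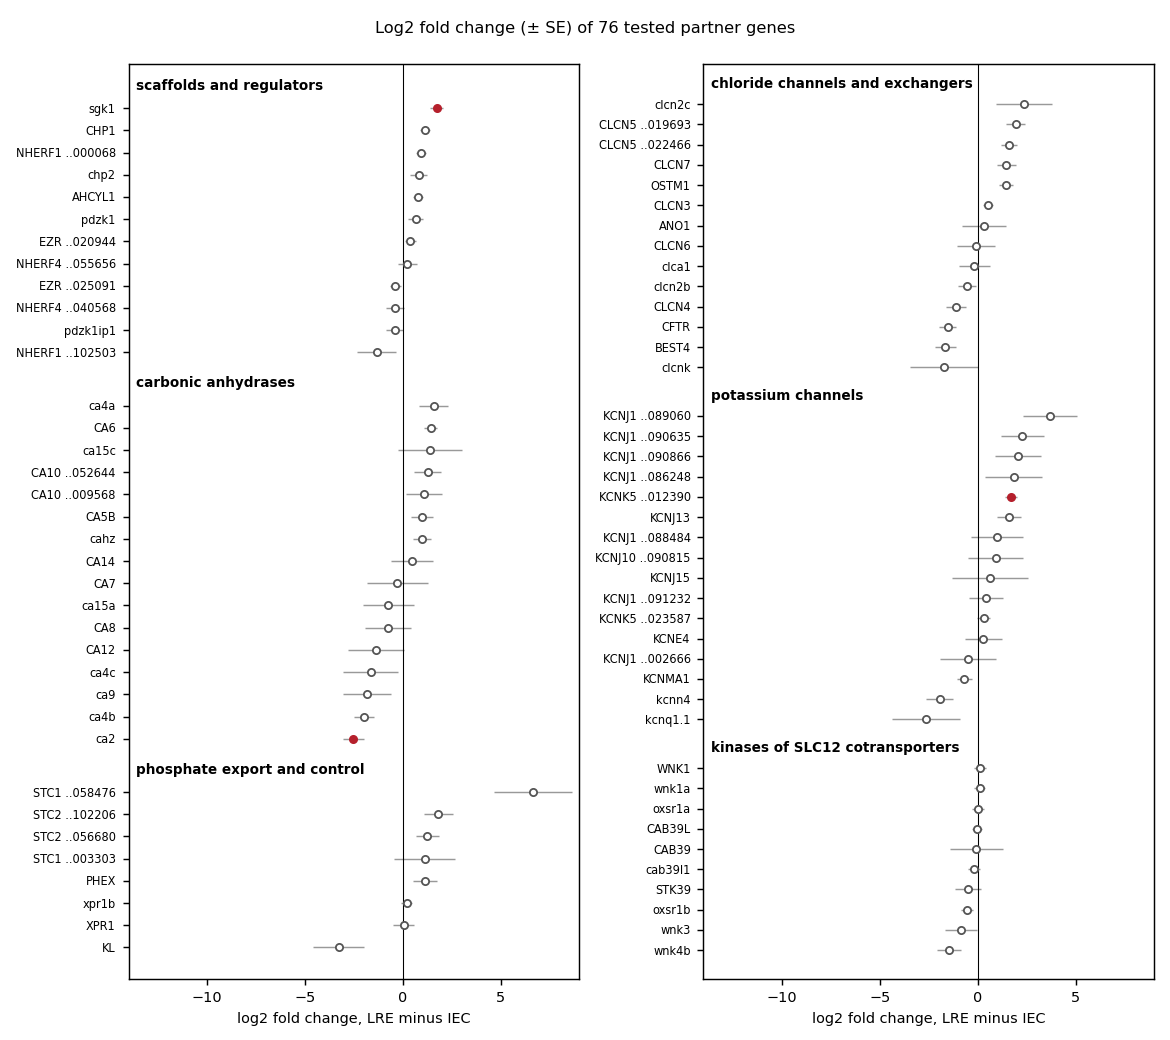
Log2 fold change, LRE minus IEC, with its SE for the 76 tested genes that work with the transporters, by group; filled red points passed the edgeR test. The filled points are sgk1 and KCNK5 on the right and ca2 on the left, and the points of the kinases lie near 0 or to its left.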

How the data were processed

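RNA sequencing libraries were made from total RNA of sorted cells with a kit for ultra low inputs, per the labels' protocols. The submitters' processing notes name HISAT2, HTSeq and the GRCz10 build; for their versions, and for strand and overlap settings, the answer is not given in the sources used here. What the authors deposited for each library is a file of raw, whole-number counts per Ensembl gene ID, not normalized. Low-input amplification may add to the spread of libraries. Reads from genes that overlap, antisense pairs included, may be mixed, and copies with near-identical sequence are uncertain.

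Symbols came from a gene name table that covered 27000 of the 35117 IDs; 30 member IDs share a symbol with another. It lists 103 member IDs, of which 102 were in the count files. No sequences are shown. A few members are not reported here by name or drawn singly, but they are part of the counts, medians and sums.

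Libraries were grouped by their titles and compared with edgeR 4.0.16 in R 4.3.3 (TMM factors, filterByExpr at its minimum count of 10 and minimum total of 15, quasi-likelihood F test, Benjamini-Hochberg adjusted p under 0.05 over 20979 genes). Dividing the size of a log2 fold change by the root of F gave its SE, and CPM values are counts over TMM-scaled totals. A count of 0 allows up to 3 counts, which is 0.0431 to 0.103 CPM; floors and counting intervals cover counting error only. The script was tested on simulated data that spread less between libraries than these data do, so that test gives no error rates for them.

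Both groups use the same replicate numbers, whose meaning the labels leave out. Deviations from group means correlated at 0.217, 0.238 and 0.188 between libraries of the same number, and lay from -0.194 to 0.0136 between the others across groups (Pearson's r across genes, which are not independent replicates). These correlations, not the labels, are the only ground for reading equal numbers as pairs. The reported test has no block, and its value with the replicate number as a block stands beside a named result where it changes the call. The chloride channels and exchangers are an exception, since only their number of calls with the block is given. No 2 libraries agreed within sampling noise.

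Genes named by rule were all members that passed and, in each class, the 3 with the highest mean CPM and the 2 with the lowest p; of partner genes, those that passed and the 5 with the lowest p. The members, lists, tests and alternatives were chosen with earlier results of these data known. Alternatives were RLE factors, totals alone, no filter, DESeq2 1.42.0, the replicate block, each library left out, both libraries numbered 1 left out, and members without slc4a1ap.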

Additional observations from a re-analysis of the deposited data

How the results depend on the processing

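Members called higher in LRE numbered 3, and 1 with scaling by totals alone, 5 without a filter, 16 with DESeq2, 8 with the replicate block, and 1 to 5 with 1 library left out. Members called lower numbered 2, and 7 with DESeq2, 4 with the replicate block, and 0 to 2 with 1 library left out; without IEC library 2, and likewise without IEC library 3, there were 0. Partner genes called higher numbered 2, and 0 with totals alone, 3 without a filter, 10 with DESeq2, 6 with the replicate block, 0 to 2 with 1 library left out and 0 without both libraries numbered 1. Partner genes called lower numbered 1, and 2 with totals alone, 2 without a filter, 7 with DESeq2, 2 with the replicate block, 0 to 3 with 1 library left out and 2 without both libraries numbered 1. Over all genes, edgeR called 483 higher and 191 lower, against 137 and 182 with totals alone, 789 and 367 with the block, and 1316 and 952 with DESeq2. The causes were not tested. RLE factors changed no count of members or partner genes and gave 479 higher and 199 lower over all genes, and leaving out slc4a1ap changed no count of members. No named gene that passed changed direction in any alternative. The median of the bicarbonate class was 0.11 and lay between -0.55, without LRE library 3, and 0.79, without IEC library 2. That of the sodium-calcium class was 0.28 and lay between -0.64, with the replicate block, and 0.28. Among the members reported by name the block changed no call other than those given with their values above. Levels near the floor, below about 0.1 CPM, cannot be told from 0.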
